A study of Homo sapiens with 6 samples.

Results

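The proteasome genes of cells labelled NCI-H929, a human multiple myeloma line, were examined in RNA sequencing libraries of IGF2BP1-KD cells (n = 3) and IGF2BP1-NC cells (n = 3). The members were the rows of the deposited count table whose pathway descriptions hold the term Proteasome, and these were 45 of the 20030 listed genes. IGF2BP1 is an RNA-binding protein that recognises methylated transcripts. The IGF2BP1-KD cells carried a lentiviral short hairpin RNA against IGF2BP1 driven by the human U6 promoter in a vector with a puromycin marker, and the IGF2BP1-NC cells are labelled as its negative control. More than 1 hairpin target is described, and which one these libraries carry is not given in the sources used here. Nothing in the labels says that the replicates came from separate cultures, so p-values measure the spread between these libraries, which may be technical.

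The proteasome is the protease that degrades proteins marked with ubiquitin. Its barrel-shaped core is built of outer alpha rings and inner beta rings, and 3 of the beta subunits cut peptide bonds. A regulatory particle caps the core, where ATPases unfold the substrate and non-ATPase subunits bind, deubiquitinate and hold it. After interferon signalling, cells replace the 3 catalytic subunits with inducible ones to form the immunoproteasome. Plasma cells and myeloma cells make large amounts of secreted protein, and inhibitors of the core are standard drugs in myeloma.

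The libraries held between 16885449 and 18112179 counts. IGF2BP1 stood at 431, 401 and 451 CPM (counts scaled to library size with TMM factors) in IGF2BP1-NC and at 123, 117 and 115 CPM in IGF2BP1-KD, a log2 fold change of −1.85 ± 0.065 (SE). The libraries went against their cell label. Of 13 plasma cell markers, 7 (CD27, CD38, FCRL5, IRF4, POU2AF1, TNFRSF13B and TNFRSF17) had at most 3 counts in every library, 1 of them had 0 throughout, and 3 exceeded 1 CPM in all libraries. Their summed level was 77.2 to 162 CPM in IGF2BP1-NC and 81.1 to 87.2 CPM in IGF2BP1-KD. The marker sums of this paragraph used library totals without TMM factors. Most of the plasma cell sum was XBP1, at 153, 79.2 and 72.3 CPM in IGF2BP1-NC and 71.7, 75.7 and 67.4 CPM in IGF2BP1-KD. Of the 5 plasma cell markers that could be tested 1, SLAMF7, was higher in IGF2BP1-KD. All 13 erythroid markers exceeded 1 CPM in all libraries, with a summed level of 8089 to 9704 CPM in IGF2BP1-NC and 9087 to 9927 CPM in IGF2BP1-KD. Of these 13 erythroid markers, 3 (23.1%) were higher and 4 (30.8%) lower in IGF2BP1-KD at an adjusted p under 0.05, where 13.7% and 14.5% of all tested genes were. Their part in the results below was not tested.

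Promoter sequence is shown for some members with a motif match. For the first motif below, 3 members are shown whether or not they were called. For the second, only members called lower are shown. RefSeq promoter windows of 300 bases (GRCh38.p14, 250 before and 50 after the annotated start) were found for 40 of the 45 members. The core of the interferon-stimulated response element, written GAAA, then any 2 bases, then GAAA, and searched on both strands, was held by the windows of 5 members (12.5%) and by 3.2% of the windows of 15638 listed genes. The 5 were PSMB10, PSME1, PSME2, PSMA4 and PSMB4. The first 3 are the genes of an inducible catalytic subunit and of both subunits of the interferon-inducible activator PA28, and 30 bases of each are given 5′ to 3′ on the strand of the gene, with the match in capitals.
PSMB10 (chr16:67936852-67936881, minus strand): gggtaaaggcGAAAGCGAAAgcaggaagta
PSME1 (chr14:24136189-24136218, plus strand): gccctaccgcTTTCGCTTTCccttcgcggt
PSME2 (chr14:24146619-24146648, minus strand): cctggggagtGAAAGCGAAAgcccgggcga

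The matches of PSMB10 and PSME2 lie upstream of the annotated start, and that of PSME1 lies just after it. The antioxidant response element, written TGACNNNGC and bound by the factor NFE2L1 that drives proteasome genes, was matched in 10 members (25%) and in 14.4% of all windows. Of the members that were lower in IGF2BP1-KD, the windows of PSMB3, PSME4 and PSMD1 held a match. The matches of PSMB3 and PSME4 lie upstream of the annotated start, and that of PSMD1 lies after it, starting at 39. They are shown in capitals.
PSMB3 (chr17:38752627-38752656, plus strand): gcctccgtttTGACTTTGCaaccaaactac
PSME4 (chr2:53971008-53971037, minus strand): cccggcggctGCAGCGTCAccagcagagcc
PSMD1 (chr2:231056887-231056916, plus strand): ggcggcctgaggaggcgacTGACTGAGCag

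PSMD11, PSMB2, PSMA2 and PSMD13 had a window without a match, and PSMB6 had no window. The remaining members with a match, ADRM1, PSMB9, PSMC4, PSMD12, PSMD3, PSME1 and PSME2, were not called. Their log2 fold changes lay on both sides of 0, from −0.12 (PSMC4) to 1.12 (PSMB9). CCAAT was found in 18 members (45%, against 36.4% of all windows), GGGCGG in 25 (62.5% against 58.9%) and TTCNNNGAA, the letters of the gamma-activated site, in 6 (15% against 6.98%). Matches are descriptions of letters, not of bound sites.

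**Figure D1:**
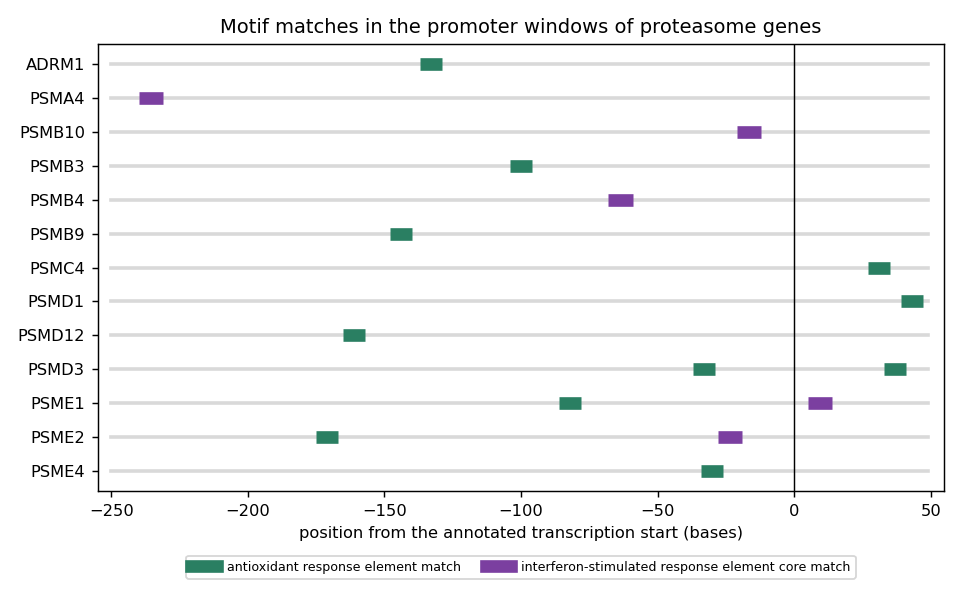
Matches of TGACNNNGC (green) and of the interferon-stimulated response element core (purple) along the 300-base promoter windows of the 13 members that hold either, by distance in bases from the annotated transcription start at 0. The purple PSMB10 match starts at −21 and that of PSME2 at −28, and that of PSME1 starts at 5.

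Levels per gene length were compared in FPKM (read counts scaled by gene length and library total). By this measure the constitutive core was the highest part, from 48.4 FPKM for PSMA6 to 389 FPKM for PSMB1 as means over the 6 libraries. Ranks by FPKM depend on the gene length used, which was 917 bases for PSMB1, 2855 for PSMA6 and 4846 for PSMB2. PSMB2 had 88.4 FPKM, the lowest of the beta ring. Its mean CPM, 471 in IGF2BP1-NC and 387 in IGF2BP1-KD, was above that of PSMB1 (372 and 342). The ATPases lay between 26.2 FPKM (PSMC6) and 107 FPKM (PSMC3), and the non-ATPase subunits between 24.5 FPKM (SEM1) and 180.2 FPKM (PSMD4, a ubiquitin receptor). Of the inducible catalytic subunits, PSMB10 stood at 28.9 FPKM, within the range of the regulatory particle, and PSMB9 at 1.79 FPKM and PSMB8 at 1.35 FPKM were the lowest of the tested members. POMP, which assists assembly of the core, stood at 59.8 ± 5.3 FPKM (SD) in IGF2BP1-NC and 59.7 ± 4.6 FPKM in IGF2BP1-KD. 3 members were too low to test: PSMA8, the germ line alpha subunit, had 0 counts in every library, and PSMB11, the thymic catalytic subunit, and IFNG, the cytokine interferon gamma that the term also lists, reached at most 1 count.

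**Figure D2:**
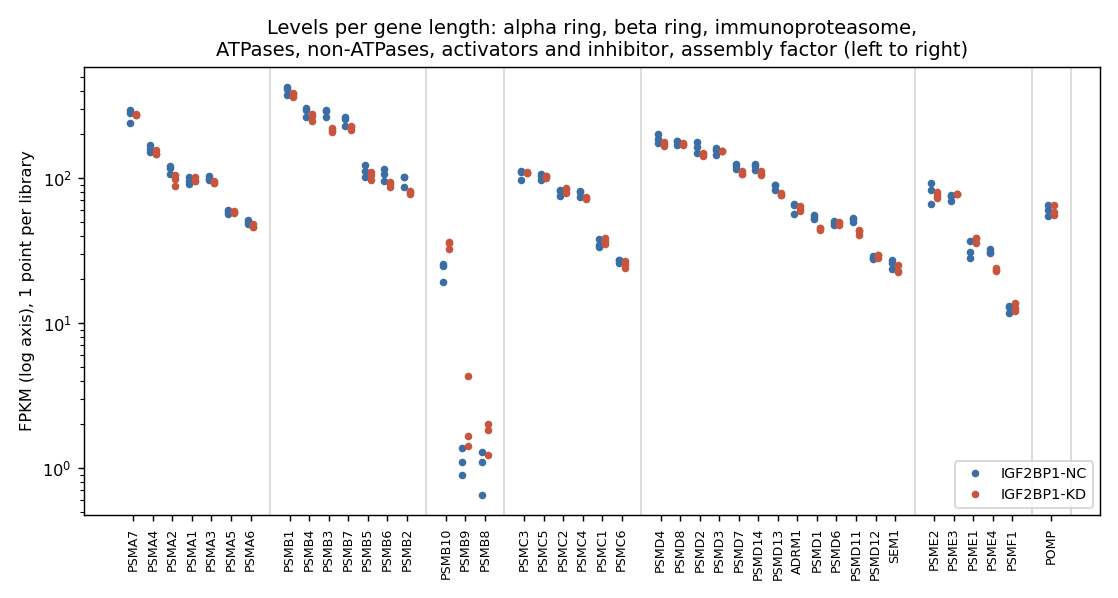
FPKM of each member on a log axis, 1 point per library, blue for IGF2BP1-NC and red for IGF2BP1-KD, ordered within structural groups. PSMB9 and PSMB8 lie below every other member shown in all 6 libraries.

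Of the 42 members tested, 1 (2.38%) was higher and 8 (19.0%) were lower in IGF2BP1-KD at an adjusted p under 0.05, where 13.7% of all 11994 tested genes were higher and 14.5% lower. The higher gene was PSMB10, and the lower ones were PSMA2, PSMB2, PSMB3, PSMB6, PSMD1, PSMD11, PSMD13 and PSME4. The share of lower members was near the background, and the share of higher members was under it. The changes were small, as 33 of 42 members lay within 1.2-fold, and 2 (PSMB8 and PSMB9, neither called) exceeded 1.5-fold. The log2 fold change was below 0 for 31 members (73.8%, against 50.7% of all tested genes), with a median of −0.09 against −0.0048 for all tested genes. Groups did not overlap for 14 members (33.3%), 11 with IGF2BP1-KD below and 3 above, where 45.6% of all tested genes did not overlap. In RNA from whole cultures, fewer cells of a kind and less RNA per cell cannot be told apart.

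One library bears on these counts. IGF2BP1-NC replicate 1 was the lowest of its group in 38 of 42 tested members, and in 38.5% of all tested genes. Without it 19 members were lower, where 16.9% of all genes tested in that fit were. Without any other single library 4 or 5 members were lower, where 9.44% to 11.8% of all genes were. PSMB3, PSMD1, PSMD11 and PSME4 were lower, and PSMB10 higher, in all 15 alternative fits, those that left out a library included.

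**Figure D3:**
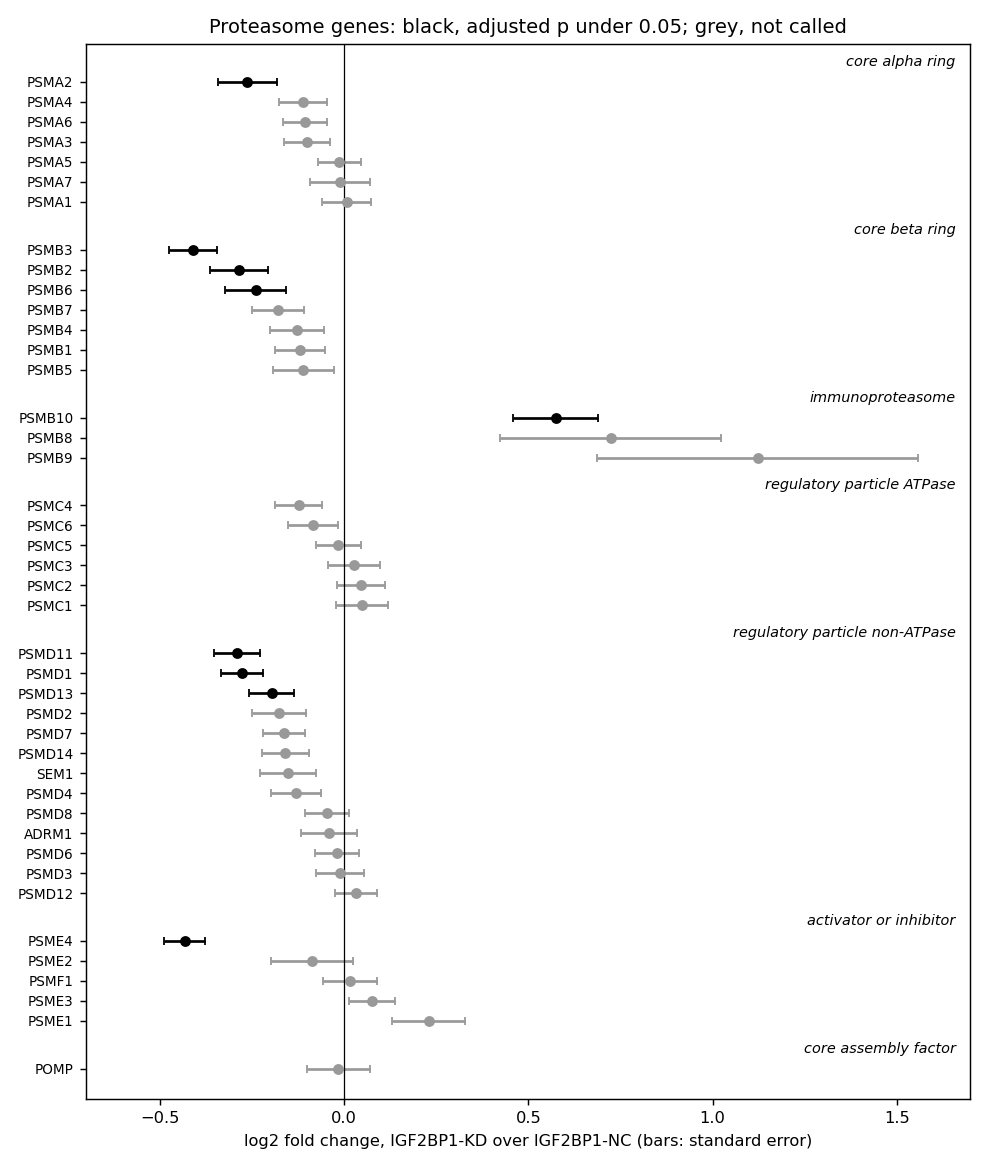
Log2 fold change of IGF2BP1-KD over IGF2BP1-NC with its standard error for the 42 tested members, by structural group, black where the adjusted p was under 0.05 and grey elsewhere. The 7 beta ring members all lie below 0, from −0.41 to −0.11, and the 3 inducible subunits lie above 0, from 0.57 to 1.12.

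The alpha rings gate the entry to the core. Of their 7 members 1 (14.3%) was lower and none higher, where 14.5% of all tested genes were lower and 13.7% higher. The median log2 fold change was −0.10, against −0.0048 for all tested genes. PSMA2 stood at 155, 175 and 179 CPM in IGF2BP1-NC and 144, 153 and 128 CPM in IGF2BP1-KD, so that the groups did not overlap. Its log2 fold change was −0.26 ± 0.080 (SE, adjusted p = 0.030), a level that fell by 16.7%. The call was lost when any library other than IGF2BP1-NC replicate 1 or IGF2BP1-KD replicate 2 was left out, with adjusted p up to 0.11. A protein-coding gene annotated on the same strand shares 1445 exonic bases with PSMA2 (17.2% of its exonic bases), and 3 pseudogenes are annotated for it. PSMA1 had the highest log2 fold change of the group at 0.0065, with 186, 213 and 199 CPM in IGF2BP1-NC and 195, 209 and 196 CPM in IGF2BP1-KD, fully overlapping. PSMA3, PSMA4, PSMA5, PSMA6 and PSMA7 lay between these values and were not called.

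The beta rings hold the catalytic sites. Of their 7 constitutive members 3 were lower and none higher, with a median of −0.18, and every member had a log2 fold change below 0, where 14.5% of all tested genes were lower and 50.7% were below 0. PSMB3, a structural beta subunit (chr17:38752741-38764225), had the largest fall. It stood at 207, 236 and 234 CPM in IGF2BP1-NC and 166, 169.5 and 174 CPM in IGF2BP1-KD, a log2 fold change of −0.41 ± 0.065 (adjusted p = 0.0012). Every IGF2BP1-KD library lay below every IGF2BP1-NC library. For PSMB3, 2 pseudogenes are annotated.

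PSMB2, another structural beta subunit, stood at 412, 501 and 501 CPM in IGF2BP1-NC and 391, 393 and 376 CPM in IGF2BP1-KD (log2 fold change −0.29 ± 0.078, adjusted p = 0.019). PSMB6, the constitutive caspase-like subunit, stood at 81.9, 94.6 and 102 CPM and at 79.1, 81.4 and 75.0 CPM (log2 fold change −0.24 ± 0.083, adjusted p = 0.0498). In both genes replicate 1 was the lowest IGF2BP1-NC library and lay just above the highest IGF2BP1-KD library. Neither was called when any library other than IGF2BP1-NC replicate 1 was left out, with adjusted p up to 0.076 for PSMB2 and 0.18 for PSMB6. PSMB6 was called in 3 of 15 alternatives, and with all libraries kept it was lost under DESeq2 (adjusted p = 0.052), limma-voom, both limma fits of FPKM, upper-quartile scaling, the replicate block and the filter of 10 counts (adjusted p up to 0.070). PSMB4, PSMB1, PSMB5 and PSMB7 were not called.

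In the regulatory particle, none of the 6 ATPases was called, where 13.7% of all tested genes were higher and 14.5% lower. Their median log2 fold change was 0.0056. PSMC1 was highest at 0.05 ± 0.072, with 104, 109 and 121 CPM in IGF2BP1-NC and 116, 121 and 109 CPM in IGF2BP1-KD. PSMC4 was lowest at −0.12 ± 0.063 (adjusted p = 0.17), with 139, 155 and 158 CPM against 139, 136 and 139.9 CPM. Both overlapped between the groups. Exons of PSMC1 share 76.1% of their bases with NRDE2 on the opposite strand (GENCODE release 44), and 13 pseudogenes are annotated for it.

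Of the 13 non-ATPase members 3 (23.1%) were lower and none higher, where 14.5% of all tested genes were lower and 13.7% higher. Their median was −0.15, against −0.0048 for all tested genes. A log2 fold change below 0 was found for 12 (92.3%), against 50.7% of all tested genes. PSMD11, a scaffold subunit of the lid, stood at 198, 211 and 217 CPM in IGF2BP1-NC and 177, 174 and 161 CPM in IGF2BP1-KD (log2 fold change −0.29 ± 0.062, adjusted p = 0.0062). PSMD1, the largest subunit of the base, stood at 225, 242 and 237 CPM and at 189, 196 and 195 CPM (log2 fold change −0.28 ± 0.057, adjusted p = 0.0049). In both, no IGF2BP1-KD library reached the lowest IGF2BP1-NC library.

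PSMD13, also of the lid, stood at 156, 172 and 173 CPM in IGF2BP1-NC and at 145, 144 and 148 CPM in IGF2BP1-KD (log2 fold change −0.20 ± 0.061, adjusted p = 0.032). The groups did not overlap, and the call was lost with any library other than IGF2BP1-NC replicate 1 left out (adjusted p up to 0.11). PSMD7, another lid subunit, and PSMD14, the deubiquitinase of the lid, also did not overlap between groups. They were not called, with adjusted p of 0.054 and 0.085. Groups did not overlap for 5 of the 13 non-ATPase members (38.5%), where 45.6% of all tested genes did not overlap. PSMD12 had the highest log2 fold change of the group at 0.03 ± 0.058, with 139.7, 145 and 149 CPM against 151, 150.2 and 143 CPM. PSMD2, PSMD3, PSMD4, PSMD6, PSMD8, ADRM1 and SEM1 were not called.

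Of the 3 immunoproteasome genes 1 (33.3%) was higher and 2 were not called, where 13.7% of all tested genes were higher. The median log2 fold change, 0.72, is that of PSMB8, which was not called. PSMB10 (chr16:67934506-67936850), the inducible trypsin-like subunit, stood at 19.1, 25.9 and 25.2 CPM in IGF2BP1-NC and 36.2, 35.6 and 32.6 CPM in IGF2BP1-KD. Every IGF2BP1-KD library lay above every IGF2BP1-NC library, and the log2 fold change was 0.57 ± 0.11 (adjusted p = 0.0041), a mean 1.49 times as high. Another protein-coding gene annotated on the same strand shares 640 exonic bases with PSMB10 (39.4% of its exonic bases).

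**Figure D4:**
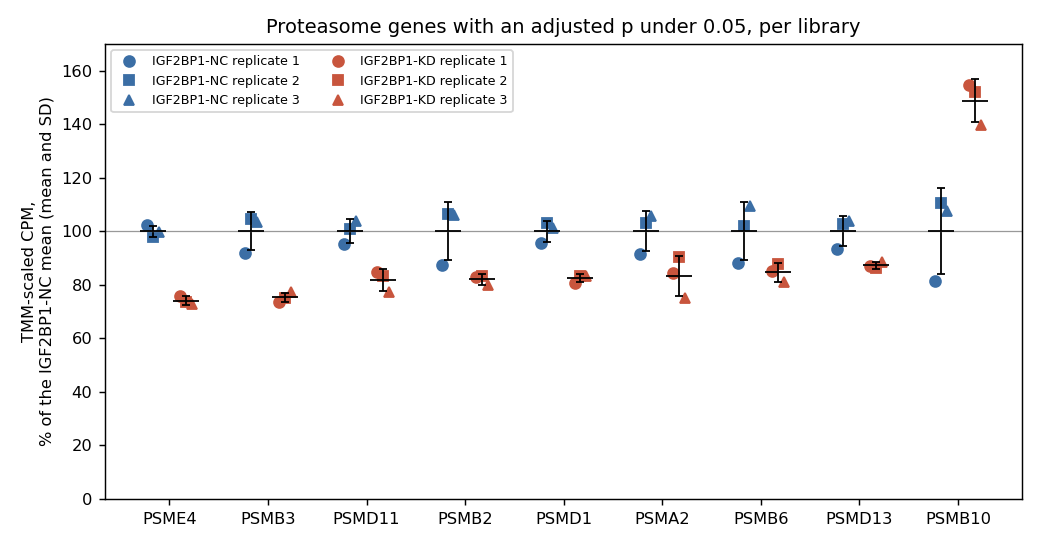
TMM-scaled CPM of the 9 called members in each library as a percentage of the IGF2BP1-NC mean, with the mean and SD of each group (n = 3) in black, blue for IGF2BP1-NC and red for IGF2BP1-KD. IGF2BP1-NC replicate 1 (blue circle) is the lowest of its group in every gene but PSME4.

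PSMB8 and PSMB9 lie on opposite strands of chromosome 6, where their exons as annotated in GENCODE release 44 share 139 bases. PSMB8 had 34, 40 and 21 counts in IGF2BP1-NC and 58, 37 and 62 counts in IGF2BP1-KD, which overlapped (log2 fold change 0.72 ± 0.30, adjusted p = 0.092). PSMB9 had 25, 20 and 17 counts in IGF2BP1-NC and 31, 25 and 79 counts in IGF2BP1-KD (log2 fold change 1.12 ± 0.44, adjusted p = 0.081). IGF2BP1-KD replicate 3 stood apart in PSMB9, and without it the log2 fold change was 0.44 (adjusted p = 0.37). PSMB9 passed the threshold only without IGF2BP1-KD replicate 2 (log2 fold change 1.40, adjusted p = 0.044).

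The inducible subunits were set against the constitutive ones they replace within each library. PSMB10 made up 7.71%, 8.80% and 8.79% of the FPKM of PSMB10 and PSMB7 together in IGF2BP1-NC and 13.6%, 13.7% and 13.2% in IGF2BP1-KD. PSMB7, the constitutive trypsin-like subunit, stood at 230.3, 271 and 264 CPM against 232, 227 and 216 CPM and was not called (adjusted p = 0.078). The ratio of PSMB10 to PSMB7 was higher by 0.76 on the log2 scale in IGF2BP1-KD (exact permutation test, two-sided, p = 0.1, the smallest that 3 libraries against 3 allow).

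The other pairs were less even. PSMB9 made up 1.43%, 1.01% and 0.772% of PSMB9 and PSMB6 in IGF2BP1-NC and 1.79%, 1.49% and 4.76% in IGF2BP1-KD (log2 ratio higher by 1.19, exact permutation p = 0.1). PSMB8 made up 1.07%, 1.15% and 0.533% of PSMB8 and PSMB5 in IGF2BP1-NC and 1.7%, 1.10% and 2.04% in IGF2BP1-KD (log2 ratio higher by 0.86, exact permutation p = 0.2). The groups overlapped for this last pair. PSMB5, the chymotrypsin-like subunit that proteasome inhibitors bind, stood at 156, 174 and 191 CPM in IGF2BP1-NC and 164, 171 and 148 CPM in IGF2BP1-KD (log2 fold change −0.11 ± 0.082, adjusted p = 0.34).

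**Figure D5:**
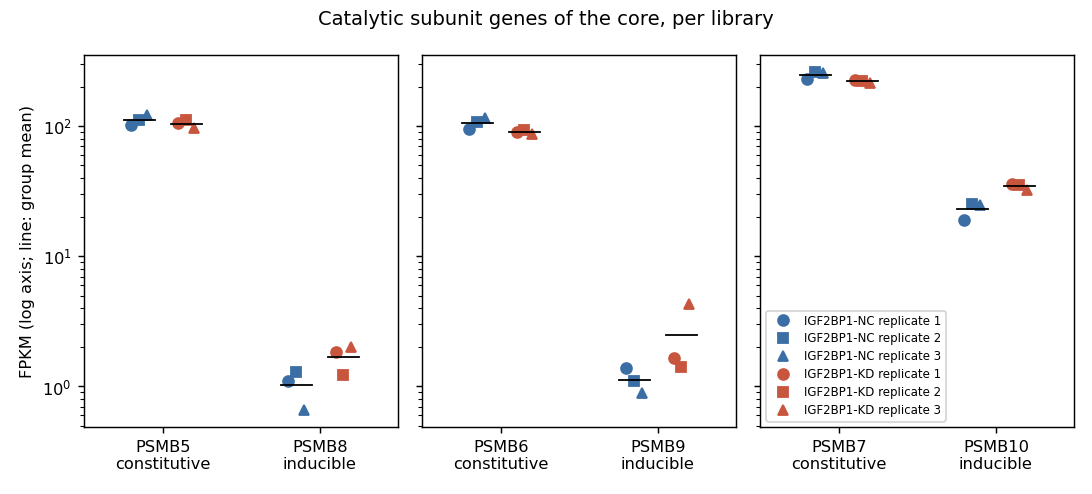
FPKM on a log axis of each constitutive catalytic subunit gene and the inducible one that replaces it, per library, with lines at the group means, blue for IGF2BP1-NC and red for IGF2BP1-KD. PSMB10 is higher in all 3 IGF2BP1-KD libraries, and the IGF2BP1-KD replicate 3 point (red triangle) stands above the others in PSMB9.

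Of the 5 activator and inhibitor genes 1 (20%) was lower and none higher, where 14.5% of all tested genes were lower and 13.7% higher. PSME4 (chr2:53864069-53970993), which encodes the activator PA200, had the largest fall of all members. It stood at 232, 222 and 226 CPM in IGF2BP1-NC and 172, 167 and 165 CPM in IGF2BP1-KD, and these groups lay well apart. Its log2 fold change was −0.43 ± 0.055 (adjusted p = 3.3e-04), a level that fell by 25.9%, and leaving out any 1 library kept it between −0.45 and −0.42.

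PSME1 and PSME2 encode the subunits of PA28. They share the interferon motif with PSMB10, and also with PSMA4 and PSMB4 of the constitutive core, which were not called. The promoter windows of PSMB8 and PSMB9 held no match of that motif. PSME1 stood at 39.2, 52.2 and 44.3 CPM in IGF2BP1-NC and 50.4, 54.2 and 54.4 CPM in IGF2BP1-KD (log2 fold change 0.23 ± 0.099, adjusted p = 0.11). It passed the threshold only without IGF2BP1-NC replicate 2 (adjusted p = 0.026). PSME2 stood at 62.6, 88.4 and 79.3 CPM and at 68.9, 72.8 and 75.3 CPM (log2 fold change −0.09 ± 0.11, adjusted p = 0.60), and was called lower without IGF2BP1-NC replicate 1. Both overlapped between the groups. PSME3, which encodes the nuclear PA28 gamma, and PSMF1, an inhibitor of the core, were not called.

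Summed over members, the beta ring was at 1536 ± 105 FPKM in IGF2BP1-NC and 1349 ± 42.2 FPKM in IGF2BP1-KD (SD, n = 3). The alpha ring was at 851 ± 54.4 and 814 ± 20.9 FPKM, the ATPases at 428 ± 23.1 and 429 ± 6.52 FPKM, and the non-ATPases at 1280 ± 58.0 and 1187 ± 3.13 FPKM. The immunoproteasome was at 25.2 ± 3.2 and 38.9 ± 0.651 FPKM. Most of this sum was PSMB10, which alone was at 23.1 ± 3.42 and 34.7 ± 1.79 FPKM.

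Other pathway terms of the same table give the members a setting, as a description. Of the genes with the term Oxidative phosphorylation 75.2% had a log2 fold change below 0 (median −0.11, 12 higher and 21 lower of 105 tested). The share below 0 was 73.8% for the members and 50.7% for all tested genes, of which 13.7% were higher and 14.5% lower. For Ubiquitin mediated proteolysis the share was 52.0% (median −0.02, 22 higher and 13 lower of 127), and for Ribosome it was 43.3% (median 0.02, 10 higher and 9 lower of 127).

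Genes that act with the proteasome were counted in 6 lists, to be read against the 13.7% of all tested genes that were higher and the 14.5% that were lower. Of 10 assembly chaperones 1 was higher and none lower. This was PSMD9, a chaperone of the ATPase ring, at 56.8, 63.6 and 63.2 CPM in IGF2BP1-NC and 79.0, 84.98 and 80.2 CPM in IGF2BP1-KD (log2 fold change 0.41 ± 0.071, adjusted p = 0.0019). PSMD5, another base chaperone, had the lowest value at −0.17 and was not called. None of 6 ubiquitin and activating enzyme genes was called, and UBB had the highest log2 fold change at 0.15.

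Of 12 receptors and deubiquitinases that work at the proteasome, UBQLN1, a shuttle for ubiquitinated proteins, was higher (log2 fold change 0.19 ± 0.059, adjusted p = 0.036), a call kept in 8 of 15 alternatives and lost when any library other than IGF2BP1-NC replicate 1 was left out. UCHL5, a deubiquitinase of the regulatory particle, was lower (−0.25 ± 0.064, adjusted p = 0.014), a call lost without IGF2BP1-KD replicate 1 or 3. Of 9 genes of the unfoldase VCP and its cofactors, VCP was higher (0.17 ± 0.059, adjusted p = 0.049) and UBXN1 lower (−0.24 ± 0.075, adjusted p = 0.031). The call of VCP was lost with any 1 library left out (adjusted p up to 0.17) and kept in 7 of 15 alternatives. That of UBXN1 was lost without IGF2BP1-NC replicate 2 or any 1 IGF2BP1-KD library (adjusted p up to 0.11).

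The route by which cells raise proteasome gene transcription runs through NFE2L1, its processing enzymes NGLY1 and DDI2 and its small MAF partners. Of 8 genes NGLY1 was higher (log2 fold change 0.22 ± 0.060, adjusted p = 0.020), and MAFG (−0.24 ± 0.060, adjusted p = 0.013) and MAFK (−0.36 ± 0.092, adjusted p = 0.015) were lower. The call of NGLY1 was lost without IGF2BP1-NC replicate 3 or IGF2BP1-KD replicate 2 or 3, that of MAFG without IGF2BP1-KD replicate 2 or 3, and that of MAFK without IGF2BP1-NC replicate 2 or IGF2BP1-KD replicate 1 or 2 (adjusted p up to 0.096). DDI2 had the highest value at 0.25 and was not called (adjusted p = 0.062). NFE2L1 itself stood at 258, 218 and 238 CPM in IGF2BP1-NC and 246, 233 and 251 CPM in IGF2BP1-KD, overlapping.

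Of 10 genes on the interferon route to the immunoproteasome, 8 were tested and none was lower. JAK1, a kinase at the receptor, stood at 124, 115 and 119 CPM in IGF2BP1-NC and at 145, 141 and 156 CPM in IGF2BP1-KD (log2 fold change 0.31 ± 0.063, adjusted p = 0.0049), and the groups did not overlap. JAK2, the other kinase of the list, overlapped between groups and was not called (log2 fold change −0.046 ± 0.078, adjusted p = 0.69). IFNGR2, a receptor chain, had the lowest value at −0.16 and was not called. TAP1, the peptide transporter gene next to PSMB9, stood at 14.2, 10.7 and 9.90 CPM against 11.1, 11.9 and 11.5 CPM, overlapping. IRF8 and NLRC5 reached at most 5 and 7 counts and were not tested.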

How the data were processed

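The RNA-seq libraries, 3 of IGF2BP1-NC and 3 of IGF2BP1-KD cells labelled NCI-H929, were grouped by their labels. Read trimming by the authors used Trimmomatic, mapping used HISAT2 (GRCh38), and the HTSeq counts they deposited are whole and not normalized. The FPKM values deposited beside them are credited to Cufflinks, and they amount to each count over its gene length and the total count of its library. The kit was stranded, but the strand setting and annotation of the counting are not given in the sources used here, so reads on overlapping genes and pseudogenes have an unknown assignment.

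Counts were fitted over all genes in edgeR 4.0.16 (R 4.3.3; TMM, filterByExpr, robust glmQLFit and glmQLFTest, two-sided, Benjamini-Hochberg), and a member was called at an adjusted p under 0.05. A count of 0 allows up to 3 counts. Ratios of subunits used an exact permutation test over libraries (scipy 1.17.1). The members and lists were chosen with earlier results of these data known. Values in every library are given for the largest rise and fall of each structural group, the catalytic pairs, the PA28 genes and members past 1.5-fold with a call, and per-library values of the other called members were added. Of each related list the largest rise and fall are named, except for some genes that are not reported here. Alternatives were DESeq2 1.42.0, library-size and upper-quartile scaling, other filters, limma-voom and limma 3.58.1 on log2(FPKM + 1) and log2(FPKM + 0.1), the replicate number as a block, and each library left out. Tests were checked on simulated counts, where edgeR found 64 of 100 genes changed 1.5-fold and called 4 unchanged genes. Smaller changes, the size of most seen in the members, were not simulated. Promoters and positions are from RefSeq, and exon overlaps from GENCODE release 44.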

Additional observations from a re-analysis of the deposited data

How the results depend on the processing

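The number of members higher in IGF2BP1-KD was 1 in every alternative that kept all libraries and ranged from 1 to 2 with a library left out. The number lower was 6 to 8 with all libraries kept, and ranged from 4 to 19 with a library left out, 19 without IGF2BP1-NC replicate 1. The share of all tested genes that were lower moved too, from 9.50% to 14.5% with all libraries kept and from 9.44% to 16.9% with a library left out. Part of the first range comes from the number of genes in the fit. The 9.50% is 1614 of 16984 genes in DESeq2, and the 14.5% is 1738 of 11994 in edgeR. The median of the non-ATPase members ranged from −0.19 to −0.10 with a library left out. Deviations from the group mean were weakly correlated between libraries of the same replicate number (−0.052, 0.0363 and −0.106). With 3 libraries per group this cannot tell whether the samples were paired. With the number as a block 1 member was higher and 6 lower, PSMB6 and PSMD13 being lost. Upper-quartile scaling gave 6 lower members and moved the median of all genes to 0.026, and the higher share of all calls from 48.7% to 56.2%. The median of the ATPases changed sign among alternatives, from −0.052 to 0.047.

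Over 62 single genes the direction and side of the threshold were kept in 809 of the fits, 58 lost a call, 21 gained one and 42 changed sign, in genes near 0 that were not called. With upper-quartile scaling the log2 fold change became 0.015 for POMP, 0.017 for PSMA5, 0.020 for PSMA7, 0.015 for PSMC5, 0.019 for PSMD3, 0.011 for PSMD6 and 0.015 for TAP1. With library size only it became 0.00176 for PSMA7 and 0.000559 for PSMD3, with 10 counts in every library 0.00198 and 0.00124, with log2(FPKM + 1) 0.0071 and 0.0022, and with log2(FPKM + 0.1) 0.0071 and 0.0022. Without a filter it was −0.0029 for PSMA1. TAP1 was at 0.0033 with limma-voom, 0.0079 with log2(FPKM + 1) and 0.013 with log2(FPKM + 0.1).

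With a library left out the log2 fold change ranged from −0.12 to 0.0061 for ADRM1, −0.0895 to 0.056 for POMP, −0.041 to 0.0597 for PSMA1, −0.047 to 0.019 for PSMA5, −0.10 to 0.059 for PSMA7, −0.0073 to 0.081 for PSMC2, −0.045 to 0.0703 for PSMC3, −0.059 to 0.024 for PSMC5, −0.069 to 0.035 for PSMD3, −0.034 to 0.0074 for PSMD6, −0.21 to 0.029 for PSME2, −0.039 to 0.058 for PSMF1, −0.027 to 0.094 for NFE2L1 and −0.11 to 0.16 for TAP1. The cause of these changes was not tested. Counts under 100 limit PSMB8 and PSMB9.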
